A study of Macaca mulatta with 10 samples.

Results

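The testes of juvenile rhesus macaques that were infused with vehicle are described here at the level of single genes. They were chosen by the treatment label alone and make up 3 of the 10 libraries of the series. All animals were wild type males of Macaca mulatta, and 1 library of whole testis was made per animal from the right testis. Vehicle, given in pulses without gonadotropin, went to TP07 at 24 months of age, TP09 at 14 months and TP11 at 15 months. The other animals received FSH and LH in pulses for 48 h (TP08, TP10 and TP12, 22, 14 and 15 months old) or for 96 h (TP15 to TP18, each 14 months old). The labels give infusions of 48 or 96 h and do not say which applied to vehicle. The treated libraries enter only 1 test below, of age class. The series asks how undifferentiated spermatogonia commit to differentiation, and the vehicle testes are its baseline.

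The juvenile primate testis holds seminiferous cords made of immature Sertoli cells, which nurse the germ cells, and of spermatogonia, the only germ cells before puberty. Peritubular myoid cells wrap the cords, and the space between them holds Leydig cell precursors, fibroblasts, vessels and macrophages. FSH acts on Sertoli cells through FSHR, and LH acts on Leydig cells through LHCGR. Both hormones are low in the juvenile period, so steroid synthesis is low and AMH, a product of immature Sertoli cells, is high.

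Strand-specific total RNA was counted over 26813 loci. The counts per library were 28620274 in TP07, 23607039 in TP09 and 29230966 in TP11, and 3 counts correspond to 0.103 to 0.127 CPM (counts scaled to the library total). Levels of different genes are compared as TPM, which is counts per length of exon scaled to the same total in each library. Values are given in the order TP07, TP09, TP11 or as mean ± SD over the 3 animals (n = 3 throughout). Each symbol is represented by its most abundant locus, which gave 14227 symbols with a median of 18.4 ± 0.355 TPM. No test was run between genes, because an exact paired sign-flip test over 3 animals cannot go below p = 0.25. Ranges over the animals are given in its place. In whole tissue, fewer cells of a type and less RNA per cell cannot be told apart.

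All 8 marker genes that define the main cell types were detected in every vehicle testis. AMH (chromosome 19, 2134647 to 2138237 on rheMac8) had 942, 1498 and 999.5 TPM and ranked 86 of all symbols. INHA, the inhibin alpha subunit of Sertoli cells, had 387, 340 and 302 TPM and ranked 259. The germ cell helicase gene DDX4 (chromosome 6, 56664432 to 56737552) had 72.7, 62.6 and 74.1 TPM. AMH and INHA thus lay far above the median symbol, and DDX4 lay above it in every animal.

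ACTA2, the actin of contractile peritubular cells, had 23.2, 39.0 and 45.4 TPM. SOX9, a transcription factor of Sertoli cells, had 26.4, 31.6 and 27.3 TPM. GFRA1, the co-receptor of GDNF on undifferentiated spermatogonia (chromosome 9, 111969717 to 112194495), had 11.3, 15.1 and 14.6 TPM. By TPM ACTA2 and SOX9 lay above the median symbol in every animal and GFRA1 below it. FSHR (chromosome 13, 49761882 to 49965789) had 9.31, 12.6 and 10.4 TPM, and LHCGR (chromosome 13, 49516047 to 49581557) had 4.42, 6.98 and 7.75 TPM. The ranges of FSHR and LHCGR did not overlap by TPM, and both lay below the median symbol by TPM in every animal. By mean CPM both lay above the median protein-coding locus, as given with the receptors below.

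The most abundant named transcripts were those of protein synthesis. By TPM the leading symbols were RPL41 with 6746 ± 145, RPS29 with 6670 ± 356 and RPS27 with 6152 ± 226, which encode ribosomal proteins. TPT1, which encodes a widely expressed translationally controlled protein, had 5875 ± 773 TPM, and the elongation factor gene EEF1A1 had 5046 ± 460 TPM. The 108 loci of ribosomal protein genes held 4.23% ± 0.318 of the counts. Genes of this kind have many near-identical copies in the genome, so reads may have been divided among them and single values are uncertain.

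Outside protein synthesis, the head of the list mixed Sertoli cell, stromal and housekeeping genes. CLU, which encodes the secreted chaperone clusterin and is a Sertoli cell product, had 1874, 1812 and 1527 TPM. DCN, the matrix proteoglycan decorin of fibroblasts, had 1453, 2013 and 1641 TPM. SPARC, a matrix glycoprotein, had 1609, 1567 and 1713 TPM. Among the 3 animals these genes varied by less than 1.5 times.

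H19, an imprinted long noncoding RNA, stood at 1243, 2309 and 1641 TPM, next to clusterin and decorin in rank (53, 52 and 54). TERC, the RNA component of telomerase, had 1415 ± 437 TPM. Its locus is 454 bp long. The interferon-inducible genes IFI27 and IFI6 had 1966 ± 188 and 1663 ± 422 TPM. APOE, the lipid carrier, had 1194 ± 66.1 TPM, and HSPA8, a constitutive chaperone, had 1660 ± 16.5 TPM. IFI6 ranged from 1241 TPM in TP11 to 2084 TPM in TP07, while HSPA8 ranged only from 1647 to 1679 TPM.

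With loci that have no single gene name included, other loci led by CPM. The mitochondrial polycistron, which joins 11 protein genes, had 27883 ± 2007 CPM. The next 3 loci carried no annotated name. One of these (chromosome 15, 48602510 to 48603149, 1 exon of 640 bp) lay between CCDC107 and CD72 and had 9818, 15015 and 11614 CPM. Another (chromosome 7, 81566598 to 81567168, 571 bp) lay between TARSL2 and TEP1 and had 7043, 9131 and 9571 CPM. By TPM the chromosome 15 and chromosome 7 loci, with 57674 ± 12569 and 45608 ± 6608, also exceeded every named nuclear gene. The identity of these loci was not tested. All 3 exceeded every named nuclear gene in every animal by CPM.

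Of the named nuclear genes, EEF1A1 led by CPM with 3386 ± 367, followed by AHNAK (2214 ± 190), SPARC (1883 ± 116), SNX5 (1823 ± 349), COL3A1 (1719 ± 752) and SYNE2 (1676 ± 242). AHNAK encodes a giant scaffold protein, SNX5 a sorting nexin and SYNE2 a nuclear envelope linker. FAM83G (4078 ± 1091 CPM) and WDR74 (1811 ± 87.4 CPM) belong to loci that were joined with an unnamed transcript, so their values cannot be given to those genes. The SNX5 locus overlaps MGME1 on the other strand.

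Counts were spread over many loci. The 50 most abundant loci held 11.7% ± 0.879 of the counts, the 1000 most abundant held 40.8% ± 0.398, and 50% of the counts were reached with 1621, 1583 and 1594 loci. The animals thus differed little in how concentrated their RNA was. Protein-coding loci held 86.9% ± 0.878 of the counts, long noncoding RNA loci 1.35% ± 0.0594 and loci without annotation 6.61% ± 0.656.

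**Figure D1:**
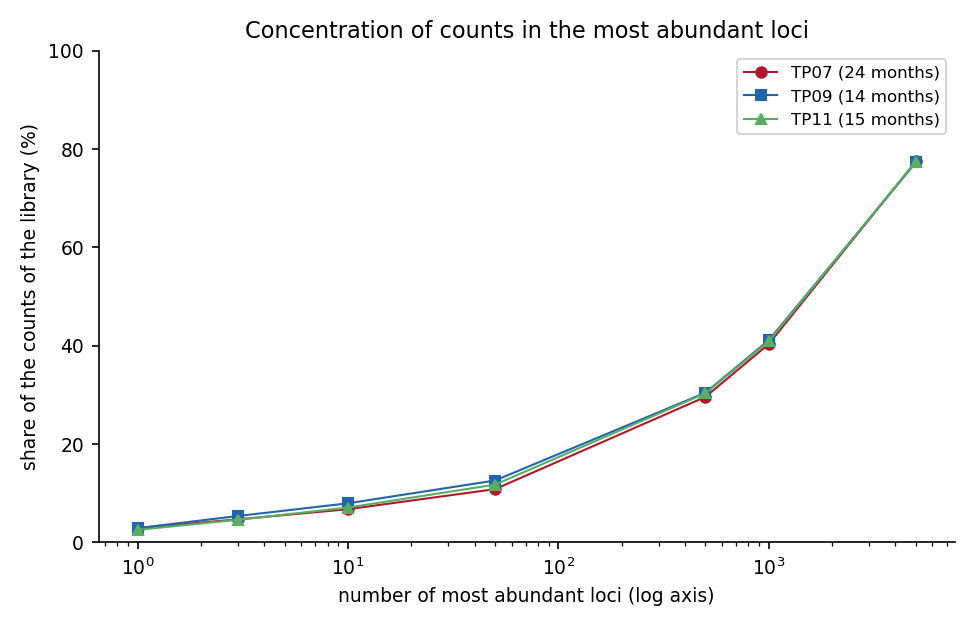
Share of the counts of each vehicle library (vertical axis, %) held by its most abundant loci, ranked by mean CPM over the 3 animals (horizontal axis, number of loci, log axis). Points are the 3 animals, whose curves lie close together and reach about 77.4% at 5000 loci.

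Sertoli cell genes had the highest mean of the list medians among cell type lists with at least 5 measured members, although in TP09 the peritubular and Leydig medians were higher. Of 22 listed genes 20 were measured, all at 1 CPM or more in every animal, with medians of 69.4, 50.5 and 55.1 TPM, or 3.17 ± 0.49 times the median symbol. Of them 14 (70%) lay above the median of all symbols, against 50.2% of all symbols. After CLU and AMH, the most abundant were BEX1, an X-linked adaptor gene, with 444 ± 65.1 TPM and TF, which encodes the iron carrier transferrin, with 436 ± 82.4 TPM. KRT8, a keratin, had 187, 114 and 135 TPM. The lowest were HOPX at 1.78 ± 0.219 TPM, SOX8 at 3.28 ± 0.789 TPM and PRND at 6.92 ± 3.77 TPM. CST12 and SHBG were not analysed here. The list therefore spanned from the top of all symbols to near their lowest 5%, which ended at 1.39 TPM.

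**Figure D2:**
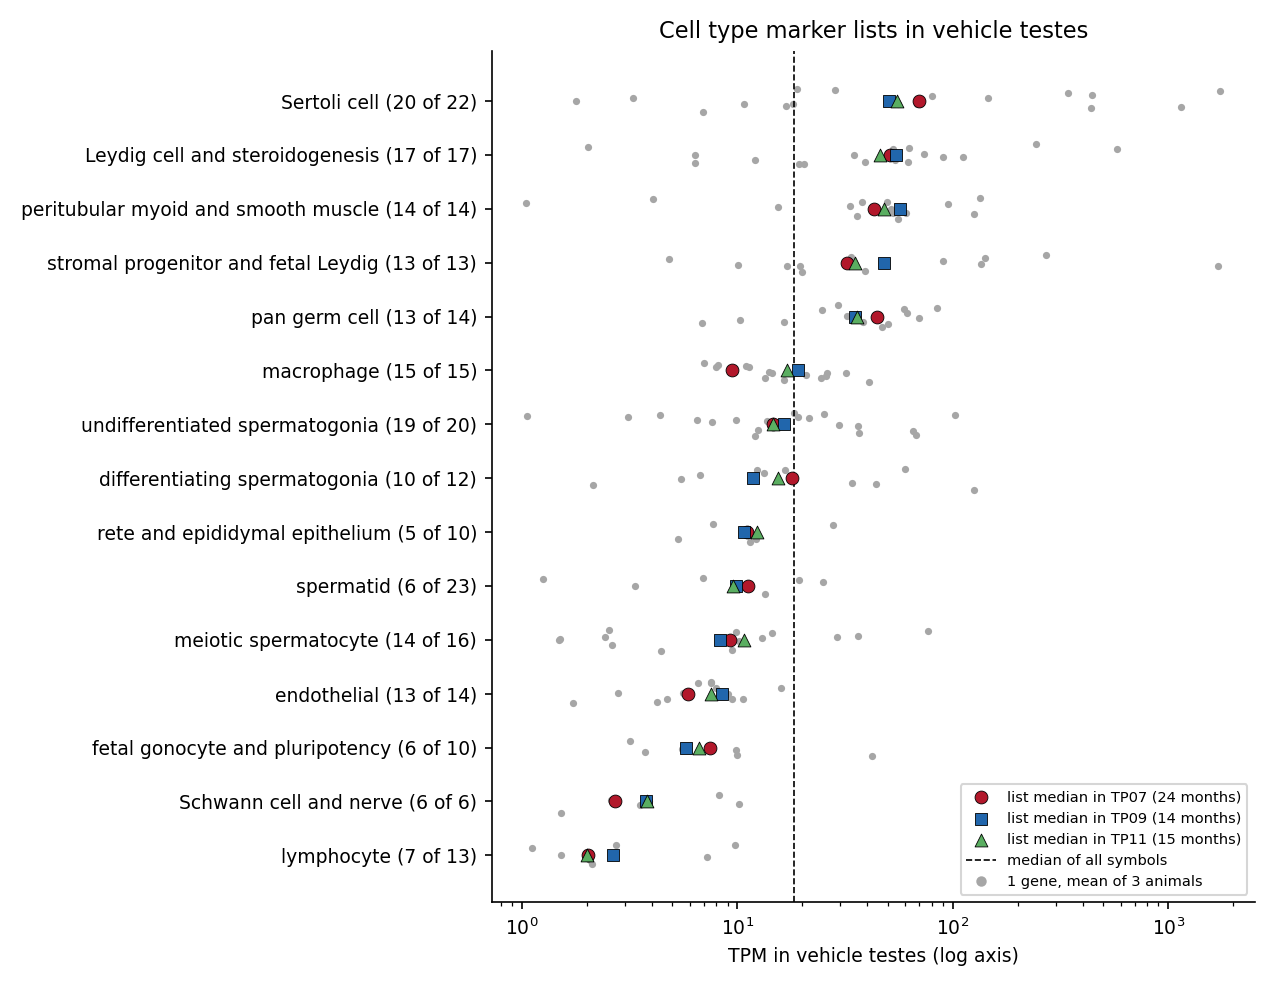
Level of each measured member of the cell type lists with at least 5 measured members (grey points, mean TPM of 3 animals, log axis) and the list median in each vehicle animal (coloured symbols). Sertoli, Leydig, peritubular, stromal and pan germ cell medians lay above the median of all symbols (dashed line, 18.4 TPM) in every animal, and lymphocyte, Schwann cell and endothelial medians lay below it.

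The 13 measured genes of the pan germ cell list had medians of 44.3, 35.0 and 36.0 TPM, above the median symbol. Of them 10 lay above it by mean TPM, and SYCP3 (16.5 ± 1.97), TDRD5 (10.3 ± 2.09) and TEX101 (6.88 ± 1.23 TPM) lay below. DAZL, an RNA-binding protein needed for germ cell development, led with 93.4, 65.6 and 94.6 TPM. MAEL, of the piRNA pathway that silences transposons, had 65.2, 54.3 and 63.4 TPM, and TDRD1, a Tudor domain protein of the same pathway, had 59.3 ± 12.8 TPM. PRAME was not analysed here.

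The 19 measured genes of undifferentiated spermatogonia had medians of 14.6, 16.4 and 14.6 TPM, below the median symbol in each animal. By mean TPM 10 of the 19 (52.6%) lay above it, against 50.2% of all symbols. PIWIL4, a piRNA-binding protein of the most primitive spermatogonia in primates, led with 130, 81.7 and 96.3 TPM. PHF13, a chromatin reader, had 67.1 ± 13.1 TPM, UCHL1, a ubiquitin hydrolase, had 65.2 ± 8.55 TPM and ID4, a repressor of differentiation, had 36.7 ± 3.32 TPM. The lowest measured member was POU3F1 at 1.05 ± 0.158 TPM, and UTF1 was not analysed here. Without division by length the same list lay above the median symbol, at 1.30 times its CPM, so its place relative to other genes depends on the scale. ZBTB16, a stem cell factor of this list, had 9.96, 32.1 and 13.2 TPM, with TP09 above the others.

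The 10 measured genes of differentiating spermatogonia had medians of 17.9, 11.8 and 15.4 TPM, and 4 of them lay above the median symbol by mean TPM. KIT, the receptor whose appearance marks differentiating spermatogonia, had 21.3, 11.2 and 17.6 TPM. CCND2, a cyclin, had 126 ± 11.4 TPM, SOHLH1, a transcription factor of the step, had 59.9 ± 9.06 TPM and KDM1B, a histone demethylase, had 44.1 ± 2.40 TPM. The lowest were REC8 at 2.13 ± 0.529 TPM and DMRTB1 at 5.49 ± 1.21 TPM. CCND2 and KIT are also expressed by somatic cells. STRA8, which is induced by retinoic acid at the entry into meiosis, was not analysed here.

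Some genes named for later stages were read at modest levels. Of 16 genes of meiotic spermatocytes 14 were measured, with a median of 9.42 ± 1.24 TPM. MLH3, a mismatch repair gene that also acts in somatic cells, led with 76.7 ± 7.31 TPM, followed by TEX12 (36.2 ± 7.14) and SYCP1 (29.1 ± 2.52), which encode parts of the synaptonemal complex. SPO11 and DMC1, which make and process meiotic breaks, had 2.44 ± 0.355 and 2.53 ± 0.568 TPM. Of 23 spermatid genes only 6 were measured, led by LDHC (24.8 ± 2.85 TPM), ODF2 (19.3 ± 2.51) and AKAP4 (13.4 ± 1.99), whose locus overlaps CCNB3 on the other strand. The protamine and transition protein genes PRM1, PRM2 and TNP1 were not analysed here. SPO11 and DMC1 were named after their values were seen.

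The Leydig cell list was above the median symbol, but its hormone and its steroid enzymes differed in level. All 17 genes were measured, with medians of 50.9, 54.6 and 45.8 TPM. INSL3, the peptide hormone of Leydig cells (chromosome 19, 17782876 to 17788812), had 361, 426 and 952 TPM, with TP11 above the others. TSPO, a mitochondrial cholesterol-binding protein found in most cells, had 244 ± 16.1 TPM, and FDXR, which passes electrons to steroid enzymes, had 112 ± 16.0 TPM. DLK1, a marker of immature Leydig cells, had 90.0 ± 3.65 TPM.

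STAR and the steroid enzymes named below were lower than INSL3 in every animal. These were named after their values were seen. STAR, the cholesterol carrier of the first step, had 50.9, 49.5 and 16.5 TPM, and CYP17A1, which makes androgen precursors, had 27.3, 35.0 and 42.5 TPM. CYP11A1, which cleaves the cholesterol side chain, had 19.4 ± 2.47 TPM. HSD3B2, a further steroid enzyme of the list, was higher with 66.5, 54.6 and 65.8 TPM, and SRD5A1 had 20.4 ± 3.57 TPM. HSD17B3, which makes testosterone, had 12.5, 12.6 and 11.01 TPM and aromatase, CYP19A1, had 2.03 ± 0.262 TPM. INSL3 exceeded CYP17A1 by 15.9 ± 5.62 times per length and by 6.53 ± 2.30 times by CPM. STAR was lowest and INSL3 highest in the same animal, TP11.

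Stromal and contractile genes were among the abundant ones. The 13 genes of stromal progenitors and fetal Leydig cells had medians of 32.4, 47.9 and 35.1 TPM and were led by DCN, IGF2, PDGFRA and OGN. OGN, a matrix proteoglycan, had 69.7, 183 and 151 TPM. The 14 peritubular and smooth muscle genes had medians of 42.9, 56.8 and 48.0 TPM. MYL9 and MYH11, the light and heavy chains of smooth muscle myosin, had 133 ± 12.2 and 125 ± 5.17 TPM, and CALD1, which binds actin, had 68.8, 105 and 110 TPM. ACTG2, an actin of enteric muscle, was under 1 CPM in every vehicle library, with 13, 14 and 13 counts. MYH11 thus exceeded ACTA2 by 3.78 ± 1.43 times per length and by 16.5 ± 6.25 times by CPM, while ACTG2 was near the lower end of all symbols.

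Vascular and immune genes were lower. The 13 measured endothelial genes had medians of 5.89, 8.45 and 7.54 TPM, and none lay above the median of all symbols. EGFL7, a secreted vascular protein, led with 16.0 ± 2.02 TPM, followed by the VEGF receptor gene KDR with 10.6 ± 1.71 TPM. All 15 macrophage genes were measured. C1QB, C1QA and C1QC, the chains of complement C1q, had 40.7 ± 22.5, 31.8 ± 14.6 and 25.7 ± 13.4 TPM, and CSF1R, the macrophage growth factor receptor, had 17.1, 27.4 and 33.5 TPM. Of 13 lymphocyte genes 7 were measured, at 1.12 to 9.75 TPM, with CD4, which macrophages also express, at the top. CD3E and MS4A1, of T and B cells, were not analysed here. The 6 Schwann cell and nerve genes had a median of 3.42 ± 0.622 TPM.

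The receptors of gonadotropins, growth hormone, prolactin and GnRH all lay below the median symbol by TPM. By mean TPM the order was GHR (14.5 ± 2.57), FSHR (10.8 ± 1.69), GNRHR (8.91 ± 0.977), LHCGR (6.38 ± 1.74) and PRLR (2.56 ± 1.09). The ranges of GHR, FSHR and GNRHR overlapped from each to the next, whereas GNRHR lay above LHCGR and LHCGR above PRLR in range. FSHR exceeded LHCGR by 2.11, 1.81 and 1.34 times within the animals.

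This order depends on the gene models. The assembled exons of FSHR add up to 16820 bp, those of PRLR to 22426 bp and those of GNRHR to 5806 bp. By CPM the order was FSHR (59.5 ± 9.37), GHR (30.8 ± 5.13), LHCGR (26.3 ± 7.52), PRLR (18.95 ± 8.28) and GNRHR (17.04 ± 1.995). FSHR lay above GHR in range by CPM, while GHR, LHCGR, PRLR and GNRHR overlapped from each to the next. FSHR was thus the most abundant of these receptors by CPM, and GNRHR lay above LHCGR and PRLR by mean TPM but below them by CPM. The median protein-coding locus had a mean of 23.6 CPM, below the mean CPM of FSHR, GHR and LHCGR and above that of PRLR and GNRHR. The place of FSHR, GHR and LHCGR below the median symbol therefore also depends on the division by length. The GNRHR locus includes an unnamed transcript, and the LHCGR locus overlaps GTF2A1L on the other strand. TSHR was not analysed here.

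Receptors of steroid and thyroid hormones ranged from 65.7 TPM down to 0.698 TPM. NR3C1, the glucocorticoid receptor, led with 58.8, 75.6 and 62.6 TPM, and THRA, a thyroid hormone receptor whose locus overlaps MED24 on the other strand, had 60.0 ± 3.30 TPM. Their ranges overlapped. NR3C2, the mineralocorticoid receptor, had 27.1 ± 3.78 TPM, and ESR2, estrogen receptor beta, had 31.0, 21.6 and 22.3 TPM. Their ranges overlapped, and both lay above the range of ESR1, estrogen receptor alpha, which had 9.83, 12.4 and 9.19 TPM. ESR2 exceeded ESR1 by 3.16, 1.75 and 2.43 times. THRB (3.41 ± 0.354), PGR (3.27 ± 1.23), GPER1 (1.33 ± 0.142) and VDR (0.698 ± 0.0648 TPM) were lower. THRA exceeded THRB by 17.8 ± 2.97 times per length and by 2.27 ± 0.378 times by CPM.

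The hormones of the AMH, inhibin and activin family were among the most abundant signals. AMH exceeded its receptor AMHR2 (84.7 ± 5.71 TPM) by 10.8, 16.9 and 12.8 times. Inhibin B is made of INHA and INHBB, and INHBB had 144, 106 and 98.6 TPM, whereas INHBA had 14.5, 19.2 and 19.6 TPM. INHBB exceeded INHBA in every animal, by 9.97, 5.51 and 5.02 times per length and by 2.92, 1.61 and 1.47 times by CPM. Both loci overlap further loci on their own strand, and the reads of the overlap cannot be divided.

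Among the receptors of this family, TGFBR3, which binds inhibin, had 120 ± 8.98 TPM and the BMP receptor BMPR1A had 112 ± 4.73 TPM. The activin receptors ACVR2A and ACVR1B had 30.8 ± 0.344 and 27.5 ± 4.18 TPM. Of the activin-binding antagonists, FSTL3 had 116 ± 12.7 TPM and FST, follistatin, only 4.76, 4.49 and 4.55 TPM. Of the BMP ligands, BMP4 was highest with 15.6, 9.47 and 10.9 TPM. Of the measured ligand genes only AMH, INHA and INHBB lay above the median symbol by TPM in every animal.

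**Figure D3:**
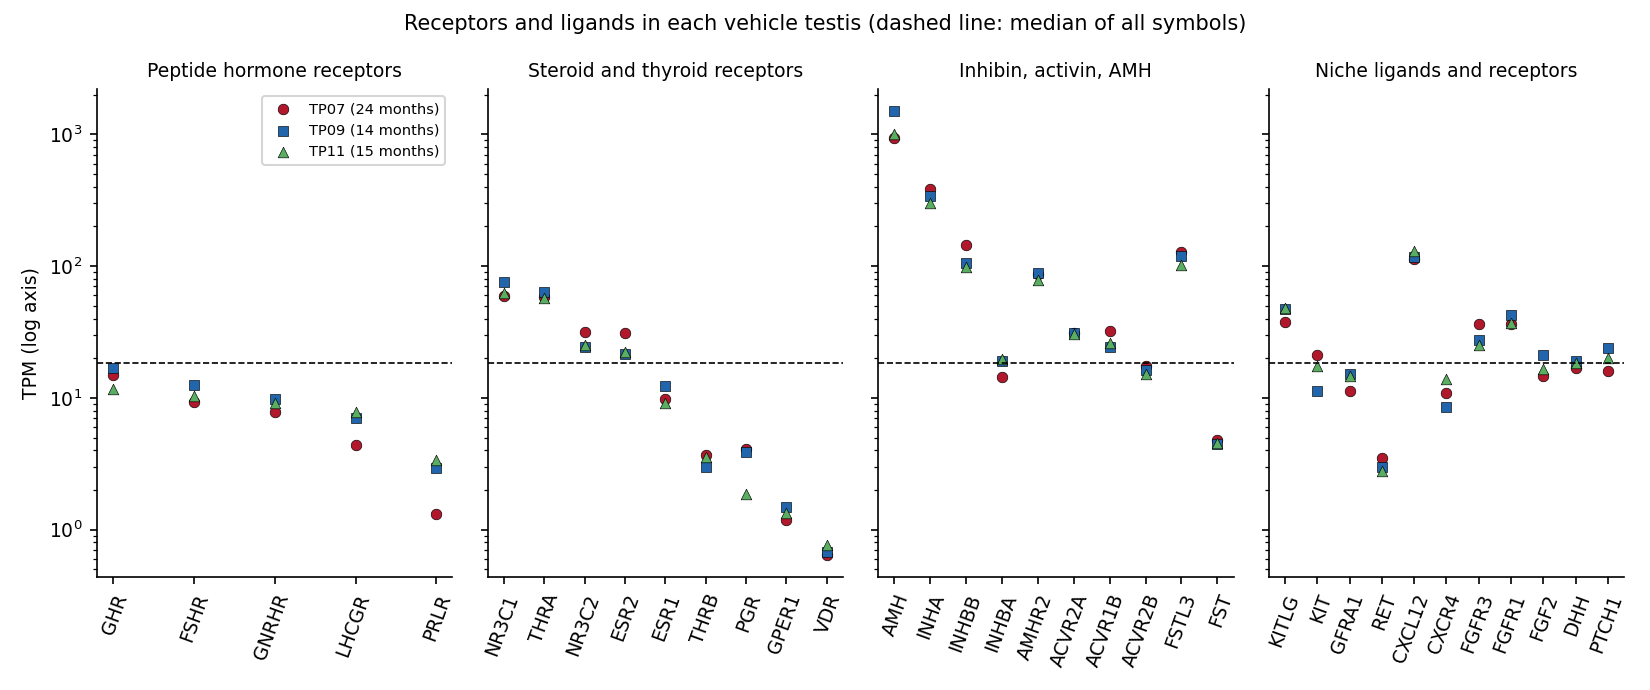
TPM (log axis) of receptors and ligands in each of the 3 vehicle animals (symbols), in 4 groups, with the median of all symbols as a dashed line. Peptide hormone receptors lie below the line, and AMH, INHA, INHBB and CXCL12 lie well above it. The place of FSHR, GHR and LHCGR relative to the median depends on the division by length.

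Signals that act on germ cells differed widely between ligand and receptor. KITLG, the ligand of KIT made by Sertoli cells, had 37.6, 47.3 and 47.9 TPM and exceeded KIT by 1.77, 4.21 and 2.73 times. CXCL12, a chemokine that attracts germ cells, had 114, 117 and 130 TPM, and its receptor CXCR4 had 10.9, 8.59 and 13.8 TPM. Their ratio was 11.1 ± 2.19 per length and 35.5 ± 6.99 by CPM. The CXCL12 locus includes a second gene identifier. GFRA1 exceeded RET, the kinase with which it signals, by 3.20, 5.06 and 5.29 times per length (6.81 ± 1.73 times by CPM), and RET had 3.09 ± 0.39 TPM. Both KITLG and CXCL12 were above their receptors in every animal.

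GDNF, the Sertoli cell ligand of GFRA1 and RET, was not analysed here, nor was PSPN. Neurturin, NRTN, which signals through GFRA2, had 5.47 ± 0.989 TPM and GFRA2 had 9.20 ± 1.83 TPM. Of the fibroblast growth factors, FGF2 was the highest ligand by mean TPM with 14.6, 21.2 and 16.4 TPM. Its locus overlaps NUDT6 on the other strand. In TP07 FGF1 was higher, and it had 19.5, 2.66 and 3.66 TPM. FGFR1 had 38.4 ± 3.43 TPM, and FGFR3, which marks primitive spermatogonia, had 36.4, 27.4 and 25.3 TPM. By TPM none of the 8 measured genes of the GDNF system lay above the median symbol. By CPM GFRA1 lay above the median protein-coding locus (23.6 CPM), so its place depends on the division by length.

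The insulin-like growth factor system was one of the most abundant systems, with a median of 133 ± 21.6 TPM over 13 measured genes, 12 of them above the median symbol. IGFBP3 had 654, 583 and 573 TPM, IGFBP7 had 395 ± 95.5 TPM and IGFBP4 had 271 ± 49.8 TPM. These encode binding proteins of the system. IGF2 had 158, 431 and 220 TPM and IGF1 had 26.9, 55.8 and 79.7 TPM. The receptor genes IGF1R, IGF2R and INSR had 57.5 ± 7.49, 51.3 ± 4.27 and 27.6 ± 2.71 TPM. IGF2 exceeded IGF1 in every animal, and both were lowest in TP07. INSL3 is counted in the list, while its receptor RXFP2 was low at 2.30 ± 0.392 TPM.

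Other niche pathways were led by few members. NOTCH2 had 107 ± 7.41 TPM and exceeded NOTCH1 by 16.4 ± 2.83 times, JAG1 was the highest Notch ligand with 35.8 ± 4.56 TPM, and the target HES1 had 51.6 ± 7.73 TPM. DHH, the hedgehog ligand of Sertoli cells, had 16.9, 19.2 and 18.3 TPM, and its receptor PTCH1 had 15.95, 24.0 and 19.97 TPM, so that the ratio of ligand to receptor was 0.924 ± 0.129 by TPM. By CPM it was 0.228 ± 0.0319, below 1 in every animal. SHH and IHH were not analysed here. DHH was thus the only hedgehog ligand measured.

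In the Wnt system the most abundant members were modulators and not ligands. DKK3 had 239 ± 31.6 TPM, LGR4, a receptor of R-spondins, had 196 ± 20.7 TPM, and the antagonist SFRP1 had 93.6 ± 9.59 TPM. The highest ligand was WNT5A with 34.1 ± 4.25 TPM, while WNT4 and RSPO1, which act in ovarian differentiation, had 2.67 ± 0.397 and 2.81 ± 0.932 TPM. LGR4 exceeded its relative LGR5 by 161 ± 29.9 times.

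In the retinoid system ALDH1A1, which makes retinoic acid, had 538, 474 and 468 TPM. Of further enzymes of that step, ALDH1A2 had 11.5 ± 1.26 TPM and ALDH1A3 had 29.9, 24.4 and 55.3 TPM. CYP26B1, which breaks retinoic acid down, had 15.9, 13.3 and 18.7 TPM. ALDH1A1 thus exceeded ALDH1A2 by 43.0 ± 4.50 times and CYP26B1 by 31.5 ± 5.70 times per length. By CPM these ratios were 22.8 ± 2.38 and 13.6 ± 2.46. Of the nuclear receptors RXRB, RXRA and RARA had 44.0 ± 1.10, 27.4 ± 2.47 and 17.1 ± 2.21 TPM. LRAT, CRABP1 and CYP26C1 were not analysed here.

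Among factors of gonadal sex determination, CTNNB1, beta-catenin, had 519 ± 23.2 TPM and PTGDS, a prostaglandin synthase, had 236 ± 24.0 TPM. WT1 and NR5A1, early gonadal transcription factors, had 80.1 ± 7.47 and 73.4 ± 0.935 TPM, and NR5A1 varied little, from 72.4 to 74.2 TPM. SRY, the testis-determining gene, had 2.32, 3.02 and 3.84 TPM. FOXL2, an ovarian factor, was not analysed here.

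**Figure D4:**
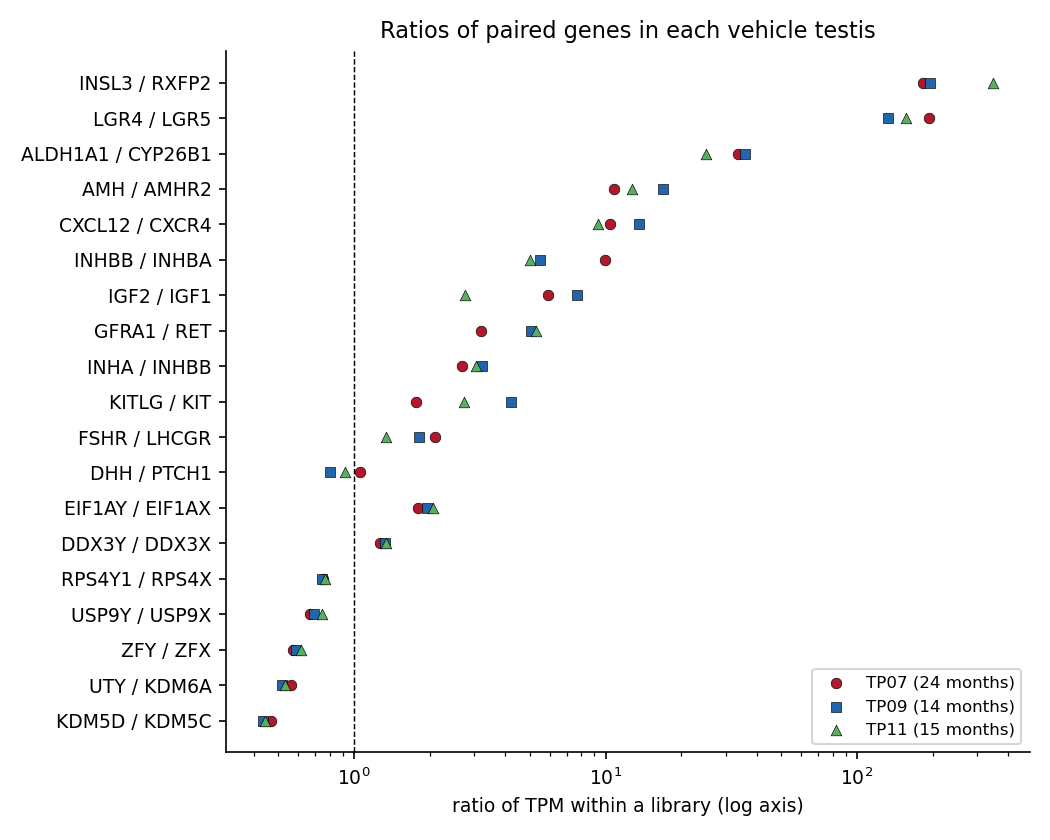
Ratio of the TPM of 2 genes within each vehicle library (log axis) for ligand and receptor pairs, related genes, and pairs of Y-linked and X-linked gene copies. Symbols are the 3 animals, and the dashed line marks equal levels. INSL3 exceeded RXFP2 by 183 to 348 times, or by 49.6 to 94.5 times by CPM. DHH and PTCH1 lay near 1 by TPM but not by CPM.

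Matrix genes were abundant. The 18 collagen genes, all measured, had medians of 47.9, 103 and 72.0 TPM. COL1A2, COL3A1 and COL1A1, the chains of fibrillar collagens, had 689 ± 294, 617 ± 265 and 390 ± 230 TPM, and COL6A1 had 213 ± 111 TPM. Of the laminins, LAMB2 was the highest with 182 ± 26.8 TPM. COL1A1 had 140, 593 and 438 TPM, and TP07 was the lowest for all of these collagens.

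Cell division genes lay around the median symbol in the unstimulated testes. The 14 measured genes had medians of 17.4, 14.5 and 23.6 TPM, and 7 of them lay above the median symbol by mean TPM. MCM6, MCM2 and MCM3, parts of the replicative helicase, led with 60.1 ± 5.11, 53.4 ± 4.30 and 48.7 ± 5.89 TPM, and TOP2A had 30.5, 34.7 and 64.1 TPM. The lowest were MKI67 at 4.33 ± 1.68 TPM and AURKB at 4.90 ± 0.520 TPM. Of inhibitors of the cycle, BTG1 had 166 ± 23.9 TPM and CDKN1B had 116 ± 3.87 TPM. CDKN2A was not analysed here. TP11 had the highest value of TOP2A.

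Of the 26813 loci, 22968 reached 1 CPM in all 3 vehicle libraries and 392 stayed below 1 CPM in all of them, although every locus reached 1 CPM in at least 3 of the 10 libraries. None had 0 counts in every vehicle library, and 77 had 0 counts in at least 1. Of the 392 loci 245 had no name, and 65 symbols were below 1 CPM at their most abundant locus. CYP11B1, a steroid 11-beta-hydroxylase with a near-identical neighbour in primates, had 0, 0 and 2 counts, below the floor of 3 counts in each library. It was named after its values were seen. Of 20 markers of other organs 7 were measured. APOA1, an apolipoprotein of liver and gut, was the exception to their low levels with 445, 319 and 304 TPM, and the next, TNNT2 of heart muscle, had 2.44 ± 0.902 TPM. ALB, INS and GCG were not analysed here.

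The 3 testes were alike for most genes. Pairwise Pearson correlations of log2 CPM over 14227 symbols were 0.982 to 0.988, given as a description across genes, which are not independent. No library was a copy of another (15.8 to 28.3 chi-square units per degree of freedom between pairs of libraries). Of 10222 symbols with a mean of at least 10 CPM, the median ratio of the highest to the lowest animal was 1.18 after TMM scaling, and 263 (2.57%) exceeded 2-fold. TP07, the oldest animal, was the one farthest from the median in 149 of these.

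Genes with the largest spread often stood out in 1 animal. CRHBP, which encodes a protein that binds corticotropin-releasing hormone, had 257, 31.0 and 15.7 TMM-scaled CPM, a 16.4-fold range with TP07 on top. FGF1 had 22.7, 3.11 and 4.39 CPM, also highest in TP07. FOS, an immediate early gene, had 4.79, 10.4 and 38.2 CPM, and HMOX1, heme oxygenase, had 5.78, 33.9 and 16.0 CPM, both lowest in TP07. ST6GALNAC1, a sialyltransferase, was lowest in TP11 with 60.7, 81.3 and 15.5 CPM. The others with the widest ranges were ACOT2, CPAMD8 and the genes HLA-DQA1, HLA-B and CSH2, which belong to near-identical families and are uncertain.

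Because TP07 was 24 months old and the other vehicle animals 14 and 15 months, age and animal cannot be told apart within vehicle. The 48 h group had the same make-up, with TP08 at 22 months, and 1 fit of all 10 libraries with treatment group and age class (over 20 months or not) tested age. All 96 h animals were 14 months old, so the age term rested on TP07 and TP08 against the younger animals of their groups. The age term was taken to be equal in vehicle and 48 h. Of 26813 loci, 0 (0%) were called at an adjusted p of 0.05 (edgeR quasi-likelihood test, two-sided, Benjamini-Hochberg), and 1830 had an unadjusted p under 0.05. DESeq2 called 60. On simulated counts the fit recovered 59% of 2-fold changes and 100% of 4-fold changes. These counts were simulated with less spread than the common estimate of the data. Changes were placed only in loci with a mean of at least 10 CPM, so recovery in the data can be lower. The following gene groups are therefore described by counts, with no call.

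Macrophage genes were lowest in TP07 in 15 of 15 cases, and in 13 of them TP08 was also the lowest of the 48 h group. Of all symbols, 31.3% were lowest in TP07 and 13.8% in both. C1QB had 15.9, 59.8 and 46.4 TPM, MRC1, the mannose receptor, had 14.6, 30.4 and 27.9 TPM and CD163, the hemoglobin scavenger receptor, had 7.70, 16.8 and 15.7 TPM. The median log2 ratio of TP07 to the younger vehicle animals was -1.11 over the list and 0.02 over all symbols. For CD163 the age coefficient was a log2 fold change of -0.86 with an unadjusted p of 0.0106, which did not pass adjustment (edgeR quasi-likelihood test). MRC1 and CD163 were named after their values were seen.

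Collagen genes showed the same order, with 18 of 18 lowest in TP07 and 14 of 18 lowest in both older animals. COL3A1 had 311, 769 and 770 TPM, and COL1A2 had 349, 875 and 842 TPM. The median log2 ratio of TP07 to the younger animals was -0.85, and for TP08 within the 48 h group it was -0.46. All 4 measured erythroid genes were also lowest in both older animals, with 128, 335 and 444 TPM for HBB, the beta-globin gene. Blood content of the tissue was not measured otherwise, and its part in these differences was not tested.

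Hedgehog genes were lowest in TP07 in 8 of 8 cases but in TP08 in only 2 of 8, and GLI1, a pathway target, had 9.25, 24.8 and 16.98 TPM. Endothelial genes were lowest in TP07 in 9 of 13 cases and in both older animals in 5. For stromal progenitor genes these counts were 11 and 8 of 13, and for peritubular and smooth muscle genes 9 and 6 of 14. Sertoli cell genes were split, with 8 of 20 lowest and 9 of 20 highest in TP07. Of genes of undifferentiated spermatogonia 13 of 19 were highest in TP07, against 40.6% of all symbols, and in 4 of 19 TP08 was the highest as well. In 22.5% of all symbols both older animals were the highest of their group. None of these counts carries a call.

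**Figure D5:**
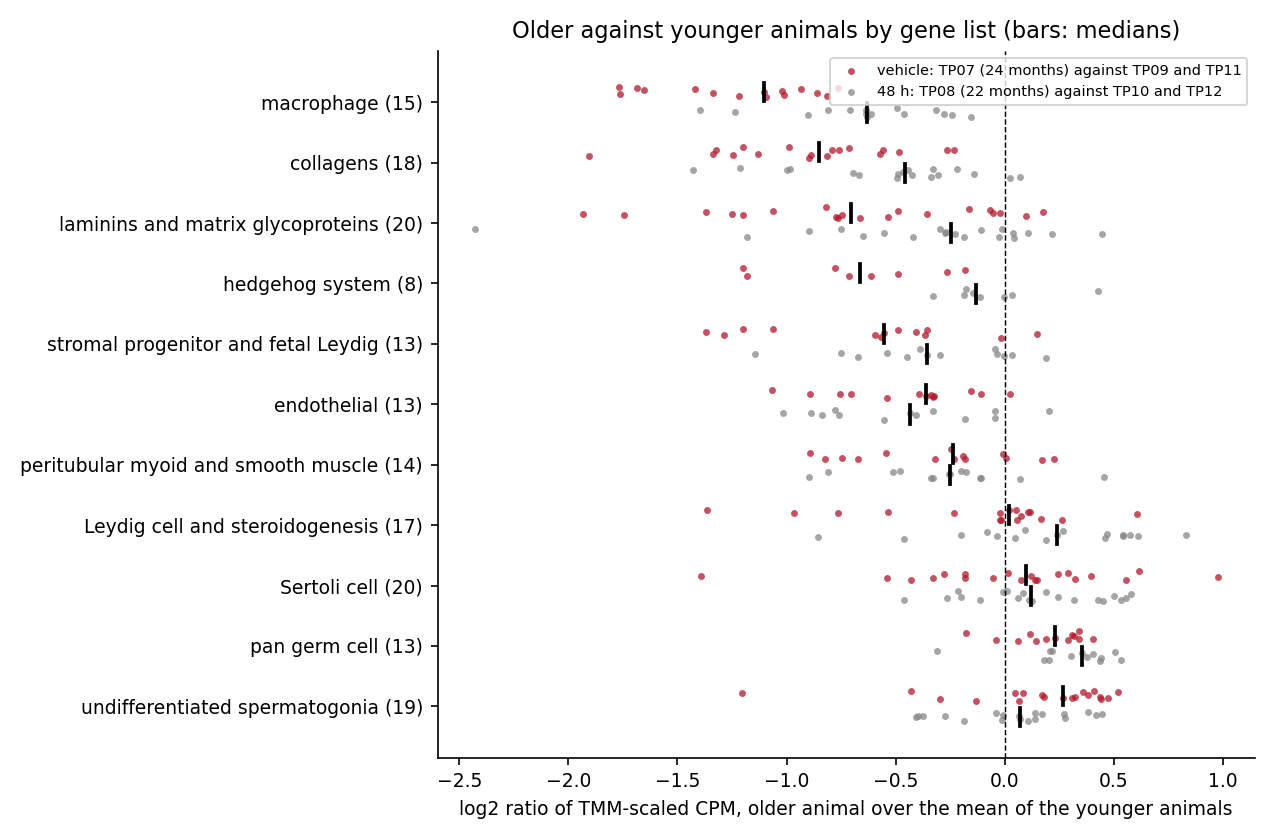
Log2 ratio of TMM-scaled CPM of the older animal over the mean of the younger animals of the same group, for each gene of 11 lists (points) in vehicle (red) and in the 48 h group (grey). Vertical bars are list medians. All macrophage and collagen points of vehicle lie below 0, and pan germ cell medians lie above 0 in both groups.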

How the data were processed

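Per the labels, RNA of snap-frozen right testis was extracted with Trizol and made into strand-specific total RNA libraries. The submitters' processing notes name HTSeq 0.6.1p1, Cufflinks 2.2.1, edgeR, Bowtie2 2.2.8 and TopHat2 2.1.1 beside cutadapt 1.9.1, and the build rheMac8. Their roles and the strand setting of counting are not given in the sources used here. Deposited values are whole-number counts for each locus and CPM, which the authors scaled to the total over kept loci, as checked on the file. A second deposited table lists CPM of 15475 loci for vehicle, all found with equal values in the larger table. Its columns give no animal, so animals come from the larger table.

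TPM was computed here from counts and the union of the exons in the deposited transcript models, whose limits on rheMac8 are the coordinates given. Gene symbols came from the larger table (14383 loci), the reference gene table by identifier (360) and the authors' vehicle table (209). Of the loci 447 join several symbols and were left out of gene values, and 8122 have no name. List genes said to be not analysed were looked up, but no locus could be assigned to their symbol, so their level is unknown. Age class was tested in R 4.3.3 by a robust quasi-likelihood fit of edgeR 4.0.16 with TMM, with DESeq2 1.42.0 as an alternative, and the fit was tested on simulated data. Plots were made with matplotlib 3.10.9 and tables with numpy 2.4.6, pandas 2.3.3 and scipy 1.17.1 in Python 3.11.15. Every library came from its own animal, and p-values refer to that spread. Floors of 3 counts cover counting error only.

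The genes and the 40 lists were chosen with earlier results of these data known. Named genes are the 8 markers, the 25 symbols highest by TPM and 10 by CPM (only some are printed), up to 4 highest and 3 unmeasured or low members of each list, ligands and receptors, and the 10 symbols of the widest range. Names outside this rule include low members of lists and genes said to be named after their values were seen. Some genes that the rule names are left out of the text. The labels give no batch.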

Additional observations from a re-analysis of the deposited data

How the results depend on the processing

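No paired analysis was possible because the labels give no replicate numbers shared between the groups. For age class, DESeq2 called 60 loci against 0 with edgeR. The count was also 0 with RLE size factors, a mean CPM of at least 5, the 6 vehicle and 48 h libraries alone and age in months, and leaving out 1 library gave 0 to 1 (1 without TP16 or TP18). The cause of these differences was not tested. With a CPM of 5, 13865 loci passed in all vehicle libraries in place of 22968, and leaving out 1 vehicle library gave 23572 to 24033. The share of the 50 most abundant loci, 11.7%, was 9.28% without mitochondrial transcripts, 9.91% without loci lacking a symbol, 26.4% by TPM and 11.3% to 12.2% with 1 animal left out. As a ratio to the median of all symbols, the list of undifferentiated spermatogonia turned from 0.829 by TPM to 1.30 by CPM. By CPM the ratio was also 0.375 in place of 0.514 for meiotic spermatocytes, 1.33 in place of 2.75 for Leydig cells, 1.96 in place of 2.68 for peritubular cells and 0.431 in place of 0.832 for macrophages. With the longest transcript as length the Leydig ratio was 2.50. The cause is the division by length, since nothing else differs. The counts of macrophage and collagen genes lowest in TP07 (15 and 18) were the same by deposited CPM, an alternative chosen after seeing the data. With 3 animals the precision of every level is limited.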

Other observations

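Of 11 Y-linked genes 10 were measured, with medians of 56.8, 57.9 and 58.1 TPM. The lowest, NLGN4Y, had 0.247, 0.645 and 0.605 TPM. DDX3Y, an RNA helicase gene of the Y chromosome, exceeded its X-linked copy DDX3X by 1.26, 1.33 and 1.34 times per length. The translation factor gene EIF1AY exceeded EIF1AX by 1.93 ± 0.133 times (SD, n = 3). The Y copy was the lower of the pair for the ubiquitin protease USP9Y (0.703 ± 0.0382 of USP9X), the zinc finger factor ZFY (0.592 ± 0.0205 of ZFX), and the histone demethylases UTY (0.536 ± 0.0236 of KDM6A) and KDM5D (0.448 ± 0.0175 of KDM5C). These copies resemble each other, so reads may have been shared between them. By CPM the ratio of EIF1AY to EIF1AX was 0.245, that of KDM5D to KDM5C 1.17 and that of UTY to KDM6A 2.03, so the direction of these 3 pairs depends on the division by length. DDX3Y and DDX3X were near equal by CPM, at 0.98, 1.03 and 1.04.

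The 566 symbols of the X chromosome had a median of 0.79, 0.809 and 0.789 times that of the autosomes by TPM. Imprinted genes were abundant, with 11 of 12 measured members above the median symbol. PEG3, which is expressed from the paternal copy, had 455, 507 and 467 TPM. An unnamed locus of 710 bp between H19 and IGF2 had 234, 539 and 310 CPM, and TP09 had the highest value for it, for H19 and for IGF2.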
